A study of Mus musculus with 14 samples.

Results

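The genes described here are the semaphorins (*Sema* genes), their plexin receptors (*Plxn* genes), the Eph receptor tyrosine kinases (*Epha* and *Ephb* genes) and the ephrin ligands (*Efna* and *Efnb* genes). They were chosen by symbol alone, as every gene of these name patterns listed in both the retina and the brain data. The patterns gave 51 of the 25915 gene symbols shared by both matrices (28316 symbols in the retina and 26528 in the brain): 20 semaphorins, 9 plexins, 9 *Epha* genes, 5 *Ephb* genes, 5 *Efna* genes and 3 *Efnb* genes. Their unique molecular identifiers (UMIs, each standing for 1 captured transcript molecule) were added up by cell type label and library. Levels are given as that sum relative to all UMIs of the label in the library, scaled to 1000000 (counts per 1000000, CPM). CPM of UMIs is not divided by transcript length, so levels are compared between cell types or libraries within a gene, and differences in level between genes are not interpreted.

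The study asked what is altered in the retina and the brain when endothelial cells (ECs) lose the TGF-beta receptor gene *Tgfbr1* early after birth. The CKO mice were *Cdh5CreER;Tgfbr1 CKO/-* (VEcadCreER in the labels), with a floxed and a null allele of *Tgfbr1* and a tamoxifen-dependent Cre under the EC promoter of *Cdh5*, and were dosed with 4-hydroxytamoxifen (4HT), which activates the Cre, from P3 to P5 (P, days after birth). Control mice are labelled wild type, were phenotypically normal, and were not given a more exact genotype in the labels. No 4HT days were recorded for the controls, so a difference in dosing cannot be told apart from genotype. For tissue sections the study describes such controls as mostly heterozygous, with Cre and 1 intact *Tgfbr1* or *Tgfbr2* allele, and whether this holds for the sequenced controls was not stated. All mice were young adults in the labels, P14 in the study's text. Whole retinas gave 1 control and 11 CKO libraries by single-nucleus (sn)RNAseq, and Ficoll-enriched vascular fragments of the brain gave 1 control and 1 CKO library, each pooled from 2 brains. The number of mice behind a retina library was not given. No retinal nuclei are labelled as ECs, so in the retina the cells that carry the deletion were not observed and only their neighbours could be compared.

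The retina control library held 11513 nuclei and 30989702 UMIs. Across the 11 CKO retina libraries, UMIs ranged from 90449 in CKO 4 to 55803724 in CKO 5, and nuclei from 104 to 18862. The brain control library held 16649 nuclei and 49798325 UMIs, and the brain CKO library 14675 nuclei and 31033373 UMIs. Within brain ECs there were 2475 control nuclei with 5801552 UMIs and 2944 CKO nuclei with 6851854 UMIs. The median was 1347 UMIs per control EC nucleus and 1491 UMIs per CKO EC nucleus. Among retina nuclei 10 barcode sequences, and among brain nuclei 2, occurred in more than 1 library.

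Several libraries stood apart before any comparison was made. CKO 4 was the smallest, and of its 104 nuclei 65 were immune cells and 25 were retinal ganglion cells (RGC), so it entered the comparisons of those labels only. The authors' manual curation removed clusters tied to CKO 4 and CKO 5. The control retina library and CKO 1 to 3 form batch 1 (4 libraries), CKO 4 and 5 form batch 2, and CKO 6 to 11 form batch 3, with a newer kit for CKO 8 to 11. Batches 2 and 3 hold no control library and therefore give no within-batch comparison. By *Xist*, the X inactivation transcript of females, the libraries also differed in sex. *Xist* was at 6779 CPM in the control retina and between 5577 and 6823 CPM in CKO 1, 2, 4 and 7, but at 12.9 CPM or lower in the other CKO libraries. In the brain *Xist* was at 1963 CPM in the control library, which also had 189 CPM of 4 Y-linked genes, and at 1.29 CPM in the CKO library, which had 421 CPM of the Y-linked genes. *Plxnb3*, *Plxna3* and *Efnb1* are on the X chromosome, and sex and genotype cannot be told apart for them in the brain.

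Semaphorins are secreted or membrane-bound guidance cues that act mostly through plexins, large receptors whose inner part acts on the cytoskeleton, and the secreted class works with neuropilins as coreceptors. Ephrins are tethered to the membrane, by a lipid anchor in the A class and by a transmembrane segment in the B class, and signal at cell contacts both into the cell with the Eph receptor and back into the cell with the ephrin. In the nervous system both families guide axons and sort cells, including the map of RGC axons, and in vessels they guide sprouts and mark arteries and veins, with *Efnb2* on the arterial and *Ephb4* on the venous side.

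The labels of the authors were compared with fixed marker genes. In the brain, EC markers (12 of 12 detected, *Flt1* the most abundant) summed to 17634 CPM in control ECs and 14173 CPM in CKO ECs, higher than in every other label in both libraries. Pericyte markers (10 of 10 detected) were also present in the EC label, at 8594 CPM in the control and 7314 CPM in the CKO library, with *Rgs5* by itself at 5631 and 4831 CPM. GABAergic markers were highest in GABA_22, but Glut_14 also had 7517 and 8207 CPM of them in the control and CKO libraries. The glutamatergic markers reached less than that in every label (at most 1934 CPM, in Glut_20). Glut_20 had 6841 and 5788 CPM of oligodendrocyte markers, so names of neuronal labels are used here as names only. The label glia was not checked against a marker list of its own. Astrocyte markers in glia summed to 3811 CPM in the control and 3668 CPM in the CKO library. In the label astrocytes they summed to 21880 and 23689 CPM. The name glia is therefore used as a name only as well. In the retina the markers of the named type were highest in their own label in every library checked for rods, cones, rod and cone bipolar cells, both amacrine classes, horizontal cells, astrocytes and immune cells. Libraries with at least 20 nuclei of the label were checked, which were 4 for astrocytes and 11 for each of the others. The exceptions were RGC, highest in 11 of 12 libraries with CKO 4 the exception, and Müller glia (MG), highest in 8 of 11 libraries, where the Müller list was higher in astrocytes of CKO 1, 5 and 8. *Tgfbr1* itself had 69.1 CPM in control and 62.9 CPM in CKO brain ECs (ratio 0.91, 95% interval 0.792 to 1.05). Since UMIs were counted per gene and not by exon, this value does not test the deletion.

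In brain ECs, 28 of the 51 genes had at least 50 UMIs over both libraries. The other 23 had at most 36 UMIs each, too few for a comparison. *Sema3c*, *Plxna4*, *Epha3* and *Epha7* were at a ratio of at most 0.5 in CKO relative to control ECs, and none of the 28 was at or above a ratio of 2 (5 were with each nucleus weighted equally, where 2663 of the 11351 genes were). With 1 library per genotype there was no test and no replicate error, and the 95% intervals of the ratios (exact conditional binomial) cover counting error only. Calling a gene at a ratio of at least 2 or at most 0.5, 0 of the 28 were called higher, against 9.45% of all 11351 genes with 50 UMIs, and 4 were called lower, against 3.9% of them. Over all genes 1073 were higher and 443 lower, and with TMM scaling 891 and 580. The ratio was above 1 for 15 of the 28 genes, beside 7047 of the 11351 over all genes. The interval lay above 1 for 10 of the 28, below 1 for 11 and held 1 for 7, and intervals over all genes were not counted. The median log2 ratio of the 28 genes was 0.05, beside 0.14 over all genes, and TMM scaling lowered every log2 ratio in ECs by 0.10, to medians of -0.05 and 0.04.

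Among the semaphorins, 9 reached 50 UMIs in ECs and 4 of them had a ratio above 1, beside 7047 of 11351 over all genes. *Sema3c*, a secreted semaphorin that acts through neuropilins and *Plxnd1*, had 485 CPM in control ECs (2815 UMIs) and 211 CPM in CKO ECs (1445 UMIs). Its ratio was 0.435 (0.408 to 0.463). ECs were the label with the highest mean *Sema3c* level in the brain, and the CKO value still exceeded that of every other label, of which vascular smooth muscle cells (vSMCs) came next with 138 CPM in the control and 124 CPM in the CKO library. *Sema6d*, a transmembrane semaphorin, had 404 CPM in control and 223 CPM in CKO ECs, a ratio of 0.553 (0.518 to 0.59). Pericytes carried far more of it, with 2175 CPM in 201 control nuclei and 543 CPM in 22 CKO nuclei. These CKO nuclei held only 9213 UMIs of all genes, so CKO values of pericytes rest on few UMIs and are not compared with the control. *Sema5a*, a transmembrane semaphorin with thrombospondin repeats, followed the same order of labels, with 61 CPM in control and 47.1 CPM in CKO ECs. In pericytes it had 673 and 217 CPM, the CKO value again on few UMIs. *Sema7a*, which is lipid-anchored and binds integrins, was lower by a smaller margin, at 391 CPM in control and 333 CPM in CKO ECs (ratio 0.853, 0.805 to 0.905).

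The transmembrane semaphorin *Sema6a* had 983 CPM in control and 1048 CPM in CKO ECs, a ratio of 1.07 (1.03 to 1.1) that became 0.992 with TMM scaling. *Sema3g*, a secreted semaphorin of arterial ECs, had 78.4 CPM in control and 97.8 CPM in CKO ECs (ratio 1.25, 1.11 to 1.41). For *Sema6b*, a transmembrane ligand of A-type plexins, the values were 12.4 and 20.3 CPM (ratio 1.63, 1.22 to 2.2). These genes thus lay on the other side of 1 from *Sema3c* and *Sema6d*, and all of them below a ratio of 2. *Sema4c*, a transmembrane ligand of *Plxnb2*, had nearly the same level in both libraries, 46.5 and 46.3 CPM, and its ratio of 0.994 crossed to 1.17 in nuclei without a cell cycle UMI. *Sema3a*, the secreted ligand of the neuropilin *Nrp1*, was close to the limit with 52 UMIs, 3.1 CPM in control and 4.96 CPM in CKO ECs, and its interval of 0.878 to 3.01 held 1. In nuclei without a cell cycle UMI its ratio was 3.01 (1.39 to 7.04) on 10 and 24 UMIs, and with each nucleus weighted equally it was 5.4.

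Of the ephrins, *Efnb2*, a mark of arterial ECs, had 111 CPM in control and 145 CPM in CKO ECs (ratio 1.31, 1.19 to 1.45). Its B-class relative *Efnb1*, which is X-linked, had 17.9 and 29.6 CPM (ratio 1.65, 1.3 to 2.11). Over all EC nuclei both were thus higher in the CKO library, but in nuclei with few pericyte UMIs *Efnb2* turned to a ratio of 0.555 (0.327 to 0.908). The arterial markers as a group (10 of 10 detected) went from 682 CPM in control to 539 CPM in CKO ECs. The part of the arterial markers in these ratios was not tested. *Efna1*, an A-class ephrin made by many endothelia, had 74.5 CPM in control and 77.5 CPM in CKO ECs, and its ratio of 1.04 (0.915 to 1.18) became 0.969 with TMM scaling. *Efna4* had only 65 UMIs, at 3.45 and 6.57 CPM (ratio 1.91, 1.1 to 3.41). *Efna5*, known from neuronal maps, was lower in CKO ECs, at 13.8 and 7.88 CPM (ratio 0.572, 0.397 to 0.817). The A-class ephrins therefore pointed in different directions, with wide intervals for *Efna4* and *Efna5*.

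Among the plexins, 6 had 50 UMIs in ECs and 3 of these had a ratio above 1, beside 7047 of 11351 over all genes. *Plxnd1*, the endothelial receptor for *Sema3e* and *Sema3c*, had 251 CPM in control ECs (1458 UMIs) and 376 CPM in CKO ECs (2573 UMIs), a ratio of 1.49 (1.4 to 1.59). ECs led all labels for *Plxnd1* in both libraries. Receptor and ligand thus differed in opposite directions in the same label, *Plxnd1* higher and *Sema3c* lower in the CKO library. *Plxna4*, a receptor for *Sema3a* with neuropilins and for *Sema6a*, had 84.3 CPM in control (489 UMIs) and 34.3 CPM in CKO ECs (235 UMIs), a ratio of 0.407 (0.347 to 0.476). Transcripts of *Plxna4* may share reads with antisense genes at the same locus, because the use of strand in counting was not given, and the part of such reads in the ratio was not tested. Counted under their own symbols in ECs, *Plxna4os1* had 10 control and 4 CKO UMIs, *Plxna4os3* had 1 and 2, and *Plxna4os2* had 0 in both libraries. *Plxna2*, the receptor for *Sema6a*, had 330 and 298 CPM (ratio 0.902, 0.847 to 0.961).

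Of the B-type plexins, which bind mainly class 4 semaphorins, *Plxnb1* had 29.5 CPM in control and 41.2 CPM in CKO ECs (ratio 1.4, 1.15 to 1.7), and *Plxnb2* had 48.3 and 56.5 CPM (ratio 1.17, 1 to 1.37). The interval of *Plxnb2* held 1, also with TMM scaling (ratio 1.09, 0.931 to 1.27), and *Plxnb3* had only 13 UMIs. *Plxna1*, a coreceptor partner of neuropilins, had 26.2 and 25.8 CPM, a ratio of 0.986 (0.789 to 1.23). No difference was detectable for *Plxna1* over all EC nuclei at this depth.

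*Epha3* had the lowest ratio of the 28 genes. This receptor for A-class ephrins had 20.3 CPM in control ECs (118 UMIs) and 5.11 CPM in CKO ECs (35 UMIs), a ratio of 0.251 (0.167 to 0.369). In EC nuclei with few pericyte UMIs, *Epha3* had only 6 control and 5 CKO UMIs, and there the ratio was 1.45. *Epha7*, a related receptor, had 19.8 CPM in control (115 UMIs) and 6.86 CPM in CKO ECs (47 UMIs), a ratio of 0.346 (0.241 to 0.49). The same direction held for *Ephb1*, a B-class receptor of neurons and glia, with 21.7 and 12.4 CPM (ratio 0.571, 0.429 to 0.758). *Epha2*, an epithelial and endothelial receptor of *Efna1*, had 53.4 and 41.2 CPM (ratio 0.77, 0.653 to 0.908).

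*Ephb4*, the venous receptor of *Efnb2*, had 117 CPM in control and 132 CPM in CKO ECs (ratio 1.13, 1.02 to 1.25). With TMM scaling its ratio was 1.05 (0.951 to 1.16), and in EC nuclei with few pericyte UMIs it turned to 0.614 (0.408 to 0.906), as that of *Efnb2* did. *Epha4*, a receptor for ephrins of both classes, had 162 and 175 CPM, and its ratio of 1.08 (0.988 to 1.17) moved to just under 1 with TMM scaling. *Epha6* had 11.2 and 16.5 CPM (ratio 1.47, 1.08 to 2.03). *Epha5* had 8.45 and 8.76 CPM, with a ratio of 1.04 (0.699 to 1.54) that became 0.965 with TMM scaling and 5.8 (1.49 to 32.8) in nuclei with few pericyte UMIs. The levels of *Epha5* and *Epha6* in ECs were low beside those in the label Glut_17, where *Epha6* reached 5428 and 6734 CPM.

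**Figure D1:**
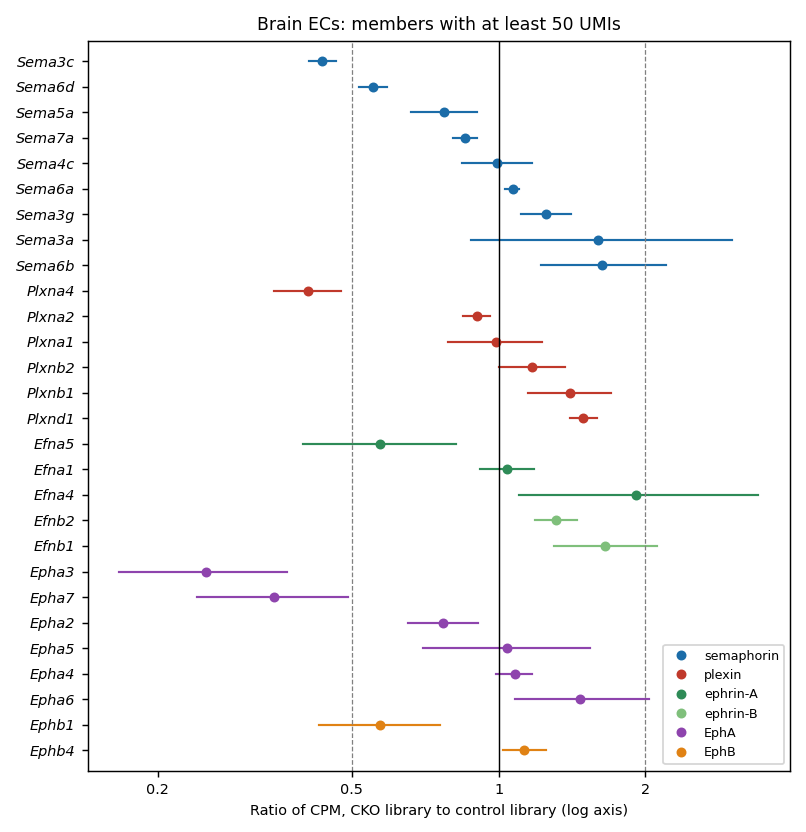
Ratio of CPM in the CKO library to CPM in the control library (log axis) for each of the 28 genes with at least 50 UMIs in brain ECs, 1 library per genotype. Points are ratios, bars are 95% intervals for counting error, colors are families, the solid line is a ratio of 1 and dashed lines are ratios of 0.5 and 2. *Epha3* (0.251), *Epha7* (0.346), *Plxna4* (0.407) and *Sema3c* (0.435) lie left of the lower dashed line, no point lies right of the upper one, and with TMM scaling *Efna1*, *Epha4*, *Epha5* and *Sema6a* cross 1.

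Other features of the EC label differed between the libraries along with these values. Capillary markers (8 of 8 detected, *Slc16a1* the most abundant at 3131 and 1923 CPM) summed to 12920 CPM in control and 6772 CPM in CKO ECs. Venous markers went from 854 to 790 CPM (*Selp* at 0 in the control) and tip cell markers from 1423 to 1474 CPM. Cell cycle genes (8 of 8 detected, *Top2a* the most abundant) summed to 263 CPM in control and 574 CPM in CKO ECs. Nuclei in which pericyte markers made up at most 10% of EC and pericyte marker UMIs were 23% of control and 9.07% of CKO EC nuclei, with 445737 and 256194 UMIs. In those nuclei the median log2 ratio of the 11 genes with 50 UMIs was -0.78, beside 0.15 over all genes. There *Efnb2* (0.555), *Epha4* (0.378), *Ephb4* (0.614) and *Sema6a* (0.68) turned to ratios below 1 with intervals below 1. In nuclei with at least 1000 UMIs their ratios were above 1, at 1.35, 1.13, 1.17 and 1.16. The part of depth in the turn among nuclei with few pericyte UMIs was not tested. In these nuclei with few pericyte UMIs, ratios with intervals that held 1 turned as well. They turned to below 1 for *Efna1* (0.719, 0.398 to 1.25), *Sema3g* (0.72, 0.335 to 1.45) and *Plxnb2* (0.87, on 2 control UMIs and 1 CKO UMI). They turned to above 1 for *Epha3* (1.45) and *Sema5a* (1.74), both on at most 6 UMIs per library. Some ratios above 1 rose further on few UMIs, those of *Epha5* to 5.8 (3 and 10 UMIs), *Plxnb1* to 15.7 (1 and 9 UMIs) and *Sema6b* to 12.2 (1 and 7 UMIs), and *Epha6* had 0 and 15 UMIs. *Plxna1* had 0 control and 5 CKO UMIs in those nuclei, and *Efna5* had 10 and 0. *Sema3c* and *Plxna4* also met the ratio of 0.5 in those nuclei, at 0.277 and 0.348, and without nuclei with cell cycle UMIs *Sema3c* had a ratio of 0.5 and *Plxna4* of 0.34.

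Markers of cells in which some of these genes are abundant were also counted in the EC label. General neuronal markers (8 of 8 detected, *Kcnip4* the most abundant) summed to 1043 CPM in control and 954 CPM in CKO ECs. Glutamatergic markers summed to 13.6 and 14.9 CPM (*Neurod6* at 0 in the CKO), and GABAergic markers to 25.2 and 45.8 CPM (*Dlx1* at 0 in the control, *Dlx2* in the CKO). The vSMC markers (7 of 8 detected, *Mylk* the most abundant, *Cnn1* at 0 in both) summed to 341 and 316 CPM, fibroblast markers (8 of 8, *Col1a2*) to 933 and 682 CPM, and astrocyte markers (8 of 8, *Gja1*) to 447 and 495 CPM. In pericytes *Epha3* had 0 UMIs and *Epha7* and *Plxna4* 1 UMI each, all in both libraries together. The vSMCs had 127 and 42.6 CPM of *Epha3* in the control and CKO libraries, 98.3 and 50.3 CPM of *Epha7* and 123 and 65.8 CPM of *Plxna4*. Their *Sema3c* was at 138 and 124 CPM. Hemoglobin transcripts (5 of 5, *Hbb-bs*) were at 18651 and 9060 CPM and choroid plexus and ependyma markers (9 of 9, *Ttr*) at 1133 and 486 CPM. The part of these cell types, of vessel segments, of cycling nuclei and of hemoglobin in the ratios above was not tested.

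The other genes of these pathways comprised 11 coreceptors, 26 plexin effectors and 21 Eph effectors, and they were counted by the same rule in brain ECs. Over all genes with 50 UMIs, 9.45% were called higher and 3.9% lower. Of the coreceptors, 7 had 50 UMIs, 1 was called higher and 0 lower. That gene was *Nrp2*, the neuropilin of venous and lymphatic ECs and a coreceptor for *Sema3g* and *Sema3c*, with 113 CPM in control (658 UMIs) and 334 CPM in CKO ECs (2287 UMIs) and a ratio of 2.94 (2.7 to 3.21). Outside the ECs *Nrp2* was called once, lower in CP_6 (0.437, 0.315 to 0.597). Its relative *Nrp1* had 598 and 563 CPM (ratio 0.941, 0.899 to 0.986), so the neuropilins were not alike in these libraries. *Kdr*, the VEGF receptor that can join plexin complexes, had 1323 and 1150 CPM.

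Of the plexin effectors, 22 had 50 UMIs, with 2 called higher and 1 lower, against 9.45% and 3.9% of all genes. *Cdk5*, a kinase downstream of *Sema3a*, had 1.55 CPM in control and 10.5 CPM in CKO ECs on only 9 and 72 UMIs (ratio 6.77, 3.38 to 15.4), and was also called higher in CP_6 (5.21, 2.96 to 9.51) and CP_8 (3.38, 2.22 to 5.14), which are not targets of the Cre. *Rnd1*, which binds plexins, had 3.79 and 8.32 CPM (ratio 2.19, 1.32 to 3.77), but a ratio of 1.14 in nuclei without a cell cycle UMI. *Mical2*, an oxidoreductase that acts on actin, had 6.55 and 2.77 CPM (ratio 0.423, 0.231 to 0.753), and was also called lower in astrocytes (0.272, 0.215 to 0.34), while *Rnd1* was called lower in Glut_1 (0.444, 0.243 to 0.771). Of the Eph effectors, 18 had 50 UMIs, with 1 called higher and 0 lower, against the same shares. That gene was *Vav3*, which was called lower in labels outside the ECs, including GABA_9 and Glut_17. The median log2 ratios of the lists were -0.14 for coreceptors and -0.06 for each effector list, below the 0.14 of all genes.

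The 12 other brain labels with at least 500000 UMIs in each library were compared in the same way. Most of these labels begin with Glut or GABA. The others are CP_6, CP_8, astrocytes and oligodendrocytes, and none of these labels is a target of the EC-specific Cre. The joint list of choroid plexus and ependyma markers was highest in CP_8, at 41866 CPM in the control and 40722 CPM in the CKO library. CP_6 was not checked apart from CP_8, so the CP names are used as names only. Of 293 gene and label pairs with at least 50 UMIs, 23 were called, against 7.59% of all 74969 pairs. They comprised 7 pairs higher in the CKO library, against 1.47%, and 16 lower, against 6.12%. With at least 100 UMIs and an interval that did not hold 1, 9 of 227 pairs remained past the fold of 2, against 4.3% of 53569 pairs over all genes. These 9 comprised 3 higher and 6 lower pairs of 7 genes.

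Semaphorins made up most of the 9 pairs. *Sema6a* had 93.7 CPM in control and 36.6 CPM in CKO nuclei of Glut_0, a ratio of 0.39 (0.342 to 0.443). In Glut_14 *Sema6a* had 265 and 126 CPM (ratio 0.473, 0.393 to 0.568). In the other 10 labels its ratio ran from 0.153 in Glut_17 (90 UMIs) to 1.81 (1.38 to 2.35) in CP_8. It was also below 1 in Glut_19 (0.572), Glut_1 (0.577), Glut_11 (0.64), GABA_9 (0.671) and astrocytes (0.863, 0.642 to 1.15). Ratios above 1 were also found in Glut_21 (1.78, 1.4 to 2.26), oligodendrocytes (1.28, 1.21 to 1.35) and CP_6 (1.28, 1.07 to 1.52). *Sema6a* thus had no common direction over all labels, but was lower in every label beginning with Glut or GABA except Glut_21. *Sema5a* differed in direction between labels, with 199 and 66.6 CPM in Glut_17 (ratio 0.334, 0.249 to 0.442) but 24.6 and 64.3 CPM in CP_8 (ratio 2.61, 1.73 to 3.92).

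Other semaphorins differed as well. *Sema3d*, a secreted cue related to *Sema3c*, had 13.9 CPM in control and 4.3 CPM in CKO nuclei of Glut_1 (ratio 0.31, 0.179 to 0.511). In that label *Sema3f*, the secreted ligand of *Nrp2*, had 7.36 and 16.5 CPM (ratio 2.24, 1.55 to 3.27, and 1.95 in nuclei with at least 1000 UMIs). *Sema7a* had 13.2 and 5.55 CPM in Glut_0 (ratio 0.422, 0.296 to 0.59). Pairs with fewer than 100 UMIs, looked up after the values had been seen, included *Sema3c* called lower in Glut_0 (ratio 0.025, 56 and 1 UMIs) and CP_6 (0.268, 72 and 8 UMIs) and *Sema3d* called lower in Glut_0 (0.131) and GABA_9 (0.391). Those called higher were *Efna2* in Glut_0 (4.42, 2.32 to 8.99), *Epha10* in CP_6 (2.51), *Sema4d* in Glut_21 (2.43) and *Ephb2* in CP_8 (2.01). *Sema3c* was thus lower in some labels that are not targets of the Cre, as in ECs, although its ratio in CP_8 was 1.67 (1.12 to 2.47). The cause was not tested.

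The remaining pairs were B-class ephrins. *Efnb3*, a midline and synaptic ephrin, had 5.77 CPM in control and 12.2 CPM in CKO nuclei of Glut_0 (ratio 2.11, 1.54 to 2.92). *Efnb2* had 40.7 and 19.5 CPM in Glut_11 (ratio 0.478, 0.292 to 0.756, and 0.509 in nuclei with at least 1000 UMIs), opposite in direction to its ratio over all EC nuclei. No plexin and no Eph receptor was among the 9 pairs, but the label glia missed the limit of 500000 UMIs narrowly (499193 in the CKO library). Looked up there after the values had been seen, *Epha3* had 185 CPM in the control and 40.1 CPM in the CKO library (341 UMIs in both), *Epha7* 286 and 52.1 CPM (522 UMIs) and *Plxnc1* 115 and 18 CPM (208 UMIs). *Epha3* and *Epha7*, called lower in ECs, were thus also lower in a label outside the ECs, and the cause was not tested. Depth differed in these labels, with a median of 5004 UMIs per control nucleus and 2314 per CKO nucleus in Glut_0, 3603 and 1653 in Glut_1, 4117 and 1834 in Glut_17, and 1721 and 666 in CP_8. The part of depth in these ratios was not tested beyond the limit of 1000 UMIs per nucleus, with which 10 of 286 pairs were called higher and 15 lower, against 1950 and 3604 of 73866 pairs over all genes. TMM scaling shifted the log2 ratios by -0.12 in CP_8 and by 0.11 in Glut_17 and turned none of the 9 ratios across 1. Of the other pathway genes, 8 of 438 pairs with 50 UMIs were called higher and 31 lower, against 1.47% and 6.12% of all pairs.

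Each gene was next placed at the brain label in which its mean CPM over both libraries was highest. The same label was highest in each library for 35 of the 51 genes. ECs were the leading label of 6 genes, *Efna1*, *Epha2*, *Ephb4*, *Plxnd1*, *Sema3c* and *Sema7a*, oligodendrocytes of 7, the labels GABA_22 of 6 and Glut_17 of 4, glia of 5 and astrocytes of 4. The labels were made from the same nuclei and genes, so these levels are a description and no test was made between labels.

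Among ligands, *Sema3c* had 485 and 211 CPM in control and CKO ECs and 138 and 124 CPM in vSMCs. Of *Sema7a*, ECs had 391 and 333 CPM and vSMCs 162 and 213 CPM, so both libraries put ECs first for these secreted or anchored cues. *Sema6a* was highest in oligodendrocytes with 2007 and 2566 CPM, ahead of ECs with 983 and 1048 CPM. *Sema5a* and *Sema4d*, a ligand of *Plxnb1*, led in oligodendrocytes too, at 1712 and 1786 CPM and at 654 and 763 CPM. *Sema6d* had 2033 and 3539 CPM in astrocytes and 2994 and 2203 CPM in oligodendrocyte precursors (OPCs), and these labels overlapped in range. The label glia led for *Sema3a* (686 and 839 CPM) and *Sema3d* (590 and 671 CPM), and OPCs for *Sema5b* (446 and 441 CPM). *Efnb2* had 177 and 174 CPM in vSMCs, followed by ECs with 111 and 145 CPM. *Sema3g* likewise led in vSMCs, with 193 and 170 CPM beside 78.4 and 97.8 CPM in ECs, so for both arterial ligands the vSMC label came before ECs. That label also held 8097 and 8043 CPM of EC markers, beside 17634 and 14173 CPM in ECs. Its own vSMC markers summed to 5348 and 4846 CPM. The part of EC transcripts in the levels of the vSMC label was not tested.

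Among receptors, *Plxnd1* had 251 and 376 CPM in control and CKO ECs and 105 and 147 CPM in vSMCs, and the ranges did not meet. *Ephb4* had 117 and 132 CPM in ECs and 70.5 and 124 CPM in vSMCs, and here the ranges overlapped. *Epha2* was spread over ECs (53.4 and 41.2 CPM), pericytes (90.3 CPM on 11 UMIs in the control, 0 in the CKO) and vSMCs without a clear first label. The CKO pericytes held only 9213 UMIs of all genes. Labels beginning with Glut or GABA led for most Eph receptors, with *Epha6* at 5428 and 6734 CPM, *Epha5* at 1129 and 1363 CPM, *Epha7* at 786 and 892 CPM and *Epha4* at 806 and 800 CPM in Glut_17. *Epha3* had 1165 and 1086 CPM in Glut_5, and *Ephb1* 2170 and 2241 CPM in the same label, overlapping with the 1683 and 2483 CPM of oligodendrocytes. *Plxna4* reached 1749 and 2036 CPM in GABA_22, a label of few nuclei (198 and 53). *Plxnb3*, whose known site is the oligodendrocyte, had 265 and 277 CPM there, *Plxnb2* had 333 and 340 CPM in CP_6, *Plxnb1* 163 and 136 CPM in astrocytes, and *Plxna2* 692 and 489 CPM in glia. *Epha3*, *Epha7* and *Plxna4*, all low in CKO ECs, therefore had labels beginning with Glut or GABA as their leading ones, unlike *Sema3c*. These are names only, and GABA_22 also held 3616 and 5617 CPM of OPC markers in the control and CKO libraries, the most outside OPCs.

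**Figure D2:**
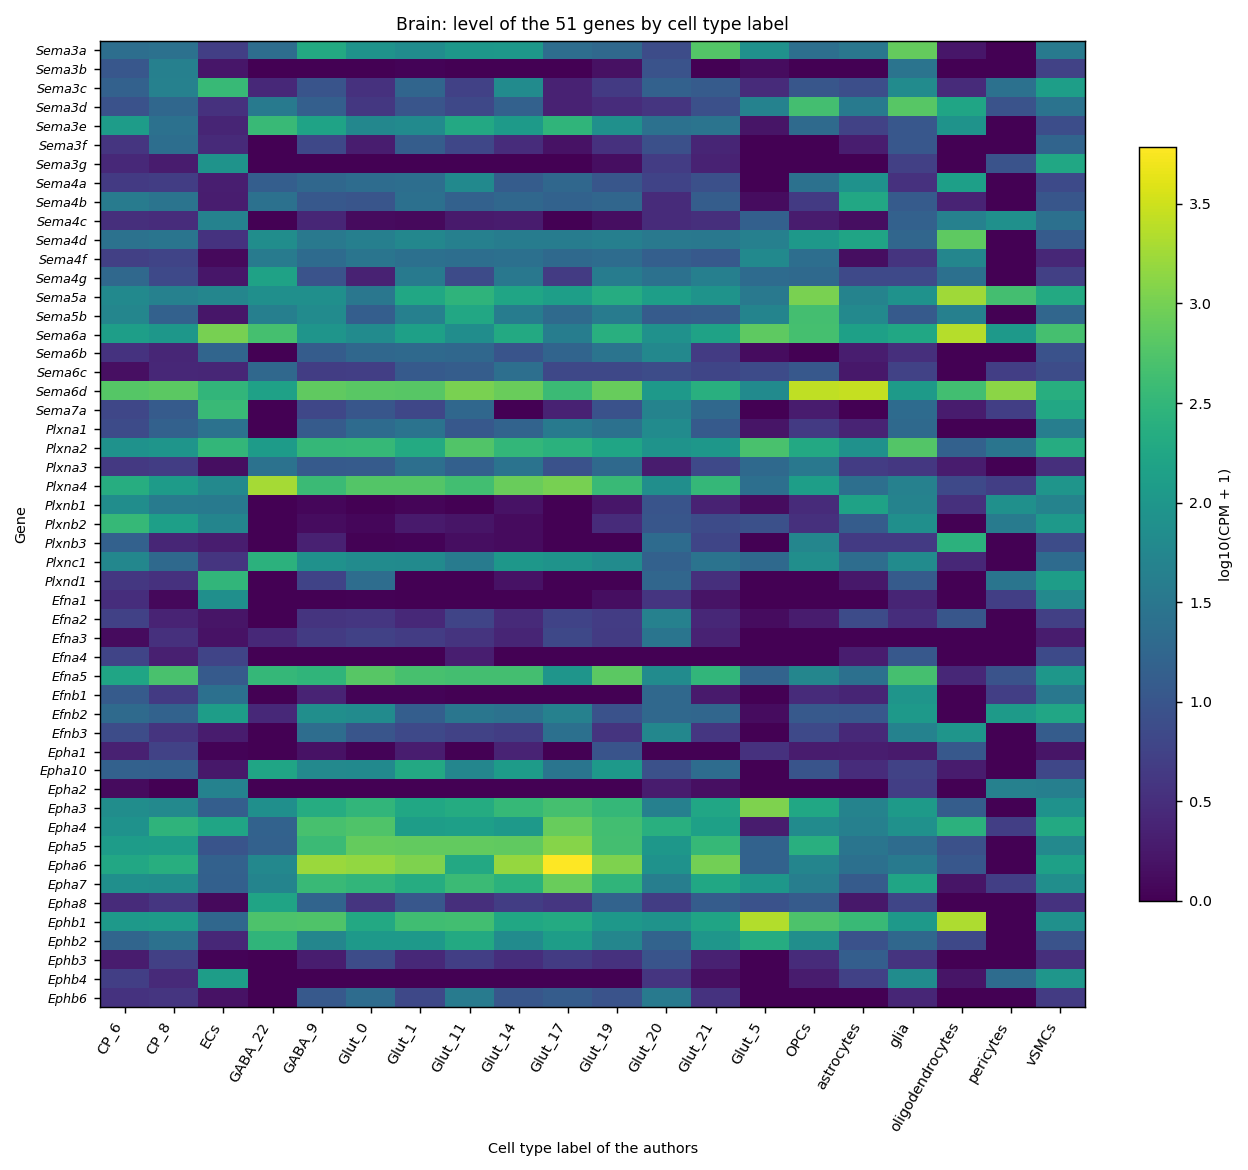
Level of the 51 genes (vertical axis) in 20 brain cell type labels (horizontal axis), each with at least 20 nuclei in both libraries, as log10 of 1 plus the mean CPM of the control and CKO libraries (color scale). Read along each gene, ECs are a high label for *Sema6a* (983 and 1048 CPM), *Sema3c* (485 and 211 CPM), *Sema7a* (391 and 333 CPM) and *Plxnd1* (251 and 376 CPM), and Glut_17 is the highest label for *Epha6* (5428 and 6734 CPM). The ratio of *Sema6a* in ECs crosses 1 with TMM scaling.

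In the retina each gene was placed at the label of highest median CPM over libraries with at least 20 nuclei of the label. Astrocytes and MG each led for 12 genes (4 and 11 of them with at least 50 UMIs in that label), GABAergic amacrine cells (GABA_AC) for 7, RGC for 6, cone bipolar cells (CBC), glycinergic amacrine cells (Gly_AC) and rods for 3 each, cones and immune cells for 2 each, and horizontal cells (HC) for 1. The leading label was highest in every library for 12 genes and in most libraries for 39. A median of at least 10 CPM in the leading label was reached by 40 genes, and of at least 100 CPM by 17. Astrocytes passed 20 nuclei in 4 CKO libraries only (CKO 1, 5, 6 and 8), and the 12 control astrocytes were too few, so no gene could be compared between genotypes in that label.

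Among the semaphorins of the retina, *Sema6d* had 650, 1250, 1478 and 1845 CPM in the astrocytes of CKO 6, 5, 1 and 8, and no more than 304 CPM in any library of RGC, the next label. *Sema5a* had between 588 and 1016 CPM in those astrocytes (median 704) and between 591 and 949 CPM in MG (median 701), so these glial labels could not be put in order. *Sema6a* had 467 CPM in control MG and between 391 and 628 CPM in MG of the 10 CKO libraries (median 521), and GABA_AC overlapped with 381 to 558 CPM. *Sema3e*, the secreted ligand of *Plxnd1*, had 306 CPM in control MG and between 230 and 427 CPM in CKO MG (median 284), higher than in any other label in all 11 libraries. *Sema5b*, which restrains growth of retinal neurites, had 245 CPM in control MG and between 231 and 369 CPM in CKO MG (median 292). *Sema3a*, which repels RGC axons and sprouting vessels, had 185 CPM in control GABA_AC and between 146 and 250 CPM in CKO GABA_AC (median 176), with RGC next to it at 134 to 247 CPM. In each of the comparisons that had a control, the control value lay within the range of the CKO libraries.

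The ephrins led mostly in glia and amacrine cells, and *Efna3* in RGC at a median of 2.8 CPM (61 UMIs). *Efna5*, a ligand that shapes the map of RGC axons, had between 672 and 1249 CPM in the astrocytes of the 4 CKO libraries (median 1027), followed by Gly_AC with 516 to 718 CPM. *Efnb2* had 80.7 CPM in control MG and between 62.9 and 109 CPM in CKO MG (median 82.1). *Efnb1* had 11 CPM in control GABA_AC and between 8.09 and 19.1 CPM in CKO GABA_AC (median 13.3). *Efna1* was at 1.32 CPM in control MG (2 UMIs) and between 5.86 and 12 CPM in CKO MG, the only label where it exceeded a median of 2 CPM, and the control lay below all 10 CKO libraries. That difference did not pass edgeR's test after Benjamini-Hochberg adjustment (log2 fold change 2.55, SE 0.88, adjusted p 0.369).

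Of the plexins, *Plxna2* had 840 CPM in control rods and between 788 and 1031 CPM in rods of the 10 CKO libraries (median 902), and rods were its highest label in every library. *Plxna4* had 438 CPM in control HC and between 233 and 506 CPM in CKO HC (median 351), overlapping with CBC at 275 to 385 CPM. *Plxnc1*, the receptor for *Sema7a*, had 92.6 CPM in control MG and between 67.9 and 102 CPM in CKO MG (median 73.4). *Plxnb2* and *Plxnb1* led in astrocytes, at medians of 74.5 and 54.6 CPM on 40 and 34 UMIs. *Plxnd1*, which led in ECs of the brain, had a median of only 24 CPM (15 UMIs) in the astrocytes of the retina, where no ECs are labelled.

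Different Eph receptors led in different retinal neurons. *Epha3* had 1190 CPM in control CBC and between 870 and 1247 CPM in CKO CBC (median 1047), against at most 219 CPM in GABA_AC, the next label. *Epha7* was likewise highest in CBC, with 772 CPM in the control and between 561 and 865 CPM in the CKO libraries (median 672), followed by rod bipolar cells (RBC) at 275 to 508 CPM. *Epha6* had 1010 CPM in control RGC and between 677 and 1121 CPM in RGC of the 11 CKO libraries (median 868), and RGC were its highest label in all 12 libraries. *Epha5*, the receptor whose gradient patterns RGC projections, was highest in MG, at 1603 CPM in the control and between 1142 and 1906 CPM in the CKO libraries (median 1389), and RGC came next with 688 to 948 CPM. *Epha4* had between 417 and 596 CPM in the astrocytes of the 4 CKO libraries (median 442). *Epha10*, a receptor without kinase activity, was highest in cones with 133 CPM in the control and between 101 and 216 CPM in the CKO libraries (median 164). Bipolar, ganglion, photoreceptor and glial labels were thus each the leading label of at least 1 *Epha* gene.

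*Ephb1*, a receptor that steers the uncrossed axons of RGC, had 397 CPM in control MG (600 UMIs) and between 234 and 360 CPM in MG of the 10 CKO libraries (median 282). The control was higher than all CKO libraries in MG, while in RGC the control with 267 CPM lay within the 176 to 311 CPM of the CKO libraries. *Ephb2* had 115 CPM in control GABA_AC and between 87.8 and 158 CPM in CKO GABA_AC (median 120). The control value of *Ephb2* lay within the range of the CKO libraries.

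**Figure D3:**
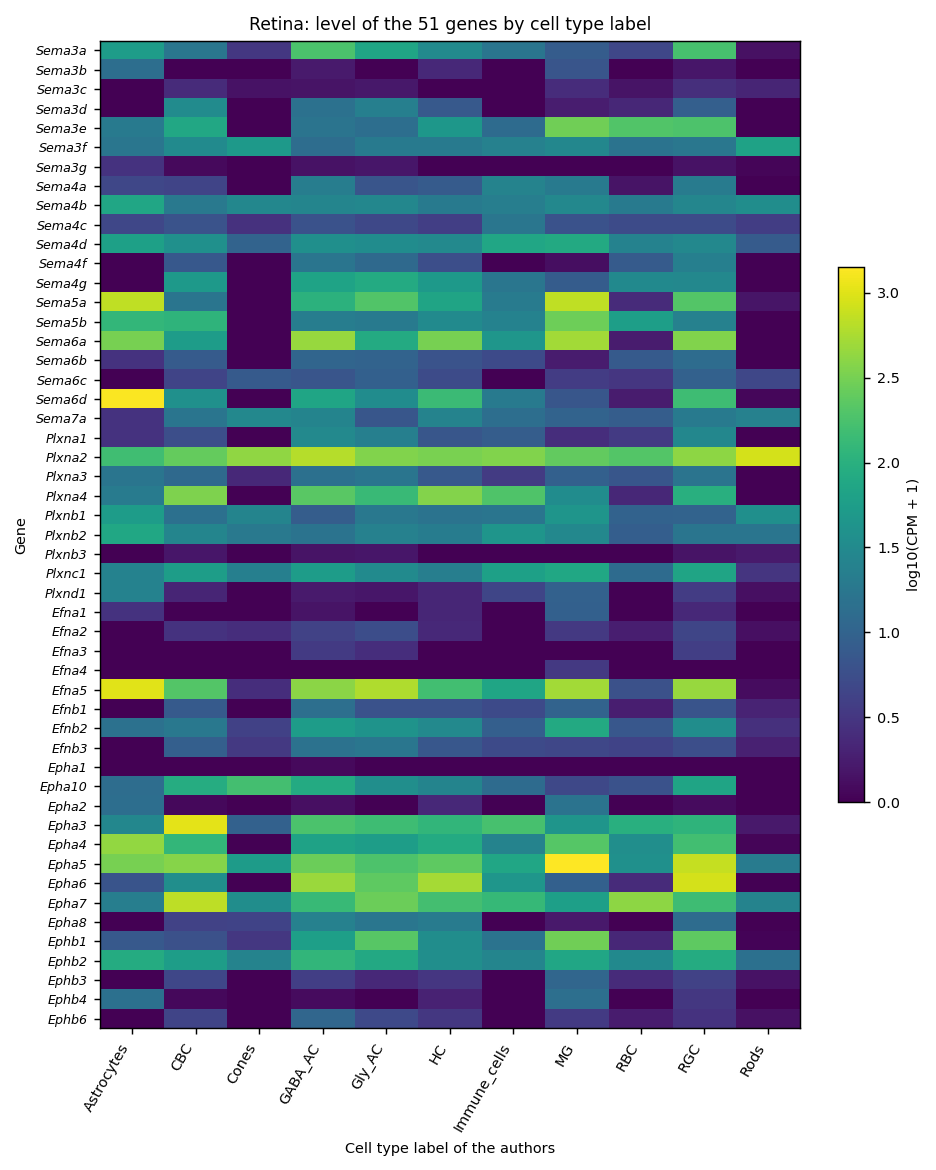
Level of the 51 genes (vertical axis) in the 11 cell type labels of the retina (horizontal axis), as log10 of 1 plus the median CPM over libraries with at least 20 nuclei of the label (color scale). Astrocytes rest on 4 CKO libraries. Read along each gene, the highest label is MG for *Epha5* (1142 to 1906 CPM in CKO libraries), astrocytes for *Sema6d* (650 to 1845 CPM), CBC for *Epha3* (870 to 1247 CPM) and rods for *Plxna2* (788 to 1031 CPM).

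The genotypes were then compared in the 10 retinal labels with at least 20 control nuclei, with edgeR across all genes of a label and with batch and kit as covariates. Batches 2 and 3 hold no control, so with batch as a covariate the log2 fold change rests on batch 1. A fit within batch 1 estimates the same contrast and is no separate check. With kit as the only covariate, the CKO libraries of the other batches enter the estimate. In 121773 gene and label pairs 21 were called at an adjusted p below 0.05, which is 0.0172% of them. Among the 316 pairs of 47 genes described here, edgeR called 0, with 22 at an unadjusted p below 0.05 (5891 of the 121773 pairs over all genes), and DESeq2 also called 0, with 15 at an unadjusted p below 0.05 (3212 over all genes). *Efna4*, *Epha1*, *Sema3c* and *Sema3g* had too few UMIs in every label for this test. The count over all genes moved with single libraries, to 62 without CKO 1, 35 without CKO 2, 43 without CKO 3, 71 without CKO 6, 73 without CKO 7, 12 without CKO 8, 13 without CKO 9 and 37 without CKO 10. Among the genes described here it was 0 each time. Within batch 1 alone (the control and CKO 1 to 3) 71 pairs over all genes were called, and 0 among the genes described here, with 23 of 281 pairs at an unadjusted p below 0.05 (4871 of 109926 over all genes). With 1 control, an exact permutation test could reach no p below 0.0833 over all 12 libraries, and only larger ones in labels or batches with fewer libraries, so the fit rests on the assumption that the control would vary as much as the CKO libraries did.

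The smallest p among these genes was that of *Ephb1* in MG. Its level was lower in the CKO libraries by a log2 fold change of -0.74 (SE 0.17), with an adjusted p of 0.17 by edgeR with Benjamini-Hochberg adjustment, lower in 10 of 10 CKO libraries. In batch 1, on which this estimate rests, CKO 1, 2 and 3 had 244, 234 and 271 CPM beside the 397 CPM of the control. With kit as the only covariate the log2 fold change was -0.65. *Epha6* followed in Gly_AC, with 322 CPM in the control and between 181 and 245 CPM in the 10 CKO libraries (median 227), a log2 fold change of -0.59 (SE 0.14) and an adjusted p of 0.292 by edgeR. In HC *Epha6* had 878 CPM in the control and between 368 and 685 CPM in the CKO libraries (median 513), a log2 fold change of -1.06 (SE 0.31) and an adjusted p of 0.757 by edgeR. All 3 pairs thus had the control above every CKO library, and none passed the adjusted threshold. The control lay outside the CKO range in 29 of the 316 pairs (9.18%), in either direction, against 11.1% of all 121773 pairs, and below it for *Epha2* in MG (3.97 CPM against 9.96 to 29.1 CPM). Only where genes with few UMIs were kept in the fit did *Ephb1* in MG (adjusted p 0.00322), *Epha6* in Gly_AC (0.0243), HC (0.0408) and MG (0.0167) and *Sema6a* in CBC (0.000693) pass it in edgeR, 5 of 502 pairs in a setting in which 784 of 246134 pairs over all genes did. There *Epha6* in MG, which rests on 1 UMI in the control, was higher in the CKO libraries, and the other 4 pairs were lower.

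For 4 of the semaphorins given above, in edgeR's fit the log2 fold change, CKO relative to control, was 0.05 (SE 0.15) for *Sema6a* in MG. With kit as the only covariate it was 0.05 as well. For *Sema3e* in MG the log2 fold change was -0.23 (SE 0.16), and -0.28 with kit only. *Sema5b* in MG had 0.09 (SE 0.20) and 0.21 with kit only, and *Sema3a* in GABA_AC had -0.01 (SE 0.20) and -0.04 with kit only. None of these 4 semaphorins differed by more than 2 SE, unlike *Efna1* in MG.

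Among the receptors, *Plxna2* in rods had a log2 fold change of 0.01 (SE 0.16) with batch and kit as covariates, and 0.15 with kit only. For *Plxna4* in HC it was -0.68 (SE 0.30), and -0.44 with kit only. Within batch 1, CKO 1, 2 and 3 had 373, 311 and 233 CPM beside 438 CPM in the control. *Epha5* in MG had -0.34 (SE 0.17) and, with kit only, -0.29. *Epha3* in CBC had -0.19 (SE 0.19) and -0.21, and *Epha7* in CBC -0.22 (SE 0.18) and -0.22. *Epha6* in RGC had -0.34 (SE 0.28) and -0.20. Each of these had an adjusted p of at least 0.596 in edgeR with Benjamini-Hochberg adjustment. All 3 CKO libraries of batch 1 lay below the control for *Plxna4* in HC, but over all batches the CKO range reached 506 CPM, above it.

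The other pathway genes gave 446 pairs with the same 10 labels, 65 of coreceptors, 191 of plexin effectors and 190 of Eph effectors. In edgeR 0 of them were called (2 of 580 without the filter on low counts), with 22 at an unadjusted p below 0.05, and DESeq2 called 0, with 17 at an unadjusted p below 0.05, beside 5891 and 3212 of the 121773 pairs over all genes. *Nrp2*, past a ratio of 2 in brain ECs, was therefore not called in any retinal label with the filter.

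**Figure D4:**
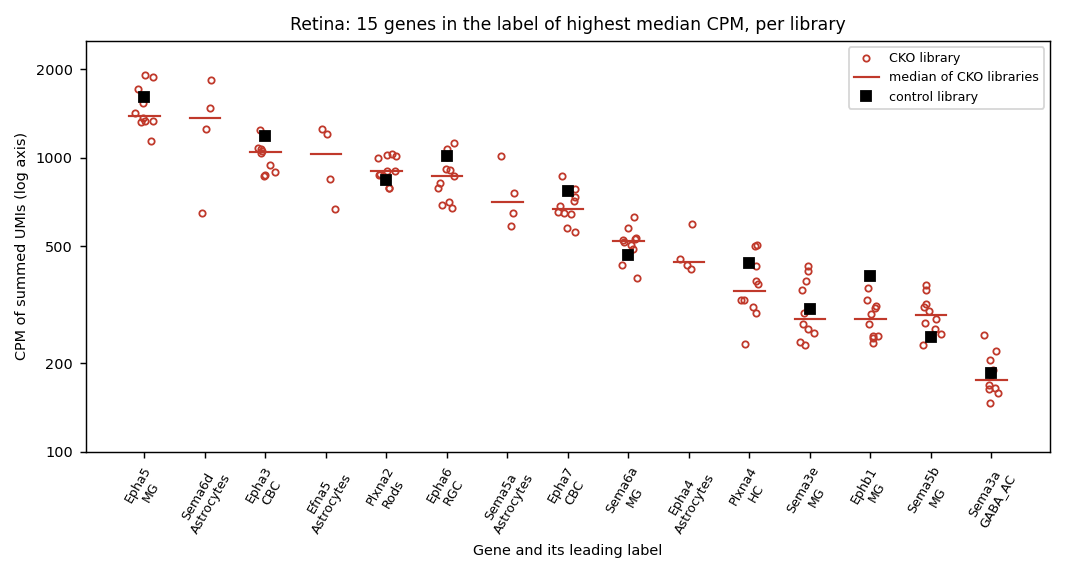
CPM of summed UMIs per library (vertical log axis) of the 15 genes of highest leading level, each in its leading label (horizontal axis). Black squares are the control library, open circles are CKO libraries (10 or 11 per gene, 4 for astrocytes, which have no control value), and lines are CKO medians. The square lies above all circles for *Ephb1* in MG (397 against 234 to 360 CPM) and among the circles for the other genes that have one.

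Some of these genes lie side by side in the genome (GRCm39). *Efna1*, *Efna3* and *Efna4* follow each other on chromosome 3 with gaps of 32.8 and 10.4 kb, and their leading brain labels were ECs, Glut_20 and glia, the latter pair on only 22 and 18 UMIs. *Sema3d*, *Sema3a*, *Sema3e* and *Sema3c* lie on chromosome 5, with gaps of 536, 422 and 3472 kb, and led in glia, glia, GABA_22 and ECs of the brain. *Sema3b* and *Sema3f* are 72.2 kb apart on chromosome 9 and both led in CP_8, while *Ephb2* and *Epha8* are 93.4 kb apart on chromosome 4 and both led in GABA_22. Neighbours thus shared a leading label in some clusters and not in others. The 4 genes called lower in ECs lie apart, *Epha3* (ENSMUSG00000052504) at chr16:63363897-63684538, *Epha7* (ENSMUSG00000028289) at chr4:28813034-28967507, *Plxna4* (ENSMUSG00000029765) at chr6:32121203-32565193 and *Sema3c* (ENSMUSG00000028780) at chr5:17779219-17935648.

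The promoters of the genes called lower in ECs are shown because the receptor deleted in these mice signals through SMAD factors, which bind the letters CAGAC. The windows of 300 bases around the transcription start come from RefSeq (GRCm38.p6), were chosen after the values had been seen, and are printed 5′ to 3′ on the strand of the gene with CAGAC, or GTCTG for the other strand, in capitals. *Epha3* has 2 matches at chr16:63864126-63864425 (minus strand), *Epha7* has 1 match at chr4:28812881-28813180 (plus strand), *Sema3c* has 0 at chr5:17574566-17574865 (plus strand), and *Plxna4* has no entry.

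Epha3: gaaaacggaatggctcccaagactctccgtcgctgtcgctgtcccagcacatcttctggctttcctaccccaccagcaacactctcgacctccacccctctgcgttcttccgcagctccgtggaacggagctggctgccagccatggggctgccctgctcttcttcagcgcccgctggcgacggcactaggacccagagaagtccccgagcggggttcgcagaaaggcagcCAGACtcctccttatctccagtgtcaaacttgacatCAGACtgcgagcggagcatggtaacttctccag

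Epha7: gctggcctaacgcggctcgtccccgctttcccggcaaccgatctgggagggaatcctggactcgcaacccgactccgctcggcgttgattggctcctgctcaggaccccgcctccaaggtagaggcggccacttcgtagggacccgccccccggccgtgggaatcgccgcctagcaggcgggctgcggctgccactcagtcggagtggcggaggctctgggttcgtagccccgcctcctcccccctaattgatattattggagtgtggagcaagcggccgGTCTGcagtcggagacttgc

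Sema3c: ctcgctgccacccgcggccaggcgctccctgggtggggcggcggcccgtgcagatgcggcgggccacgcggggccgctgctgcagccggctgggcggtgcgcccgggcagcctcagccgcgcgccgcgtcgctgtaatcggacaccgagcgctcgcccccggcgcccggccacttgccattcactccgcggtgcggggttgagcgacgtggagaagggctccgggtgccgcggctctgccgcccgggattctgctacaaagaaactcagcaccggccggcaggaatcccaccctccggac

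Over both strands, the motif occurred in 35 of 59 windows (59.3%) of the 45 of 51 genes with an entry, and in 16292 of 32851 (49.6%) of all windows. A match describes the letters in the window and is not a binding site, and these genes differed in the number of matches.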

How the data were processed

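The deposited matrices hold UMI counts for each gene in each nucleus. The authors obtained them with PIPseeker (GRCm39), removed background with CellBender and doublets with SOLO, and curated nuclei by hand. Labels, batches and kits are theirs. Whether counting used strand was not given in the sources used here. UMI counts were summed per label and library (pandas 2.3.3, numpy 2.4.6 and scipy 1.17.1 in Python 3.11.15, with plots by matplotlib 3.10.9) and divided by the total for CPM. The libraries held from 90449 to 55803724 UMIs. Retinal labels with at least 20 nuclei in a library were tested with edgeR 4.0.16 (quasi-likelihood test, filterByExpr, TMM, Benjamini-Hochberg adjustment over all genes of a label, threshold 0.05) in R 4.3.3 with limma 3.58.1, and with DESeq2 1.42.0 as an alternative. The fit takes the spread of the single control to be that of the CKO libraries, and p-values measure the spread between libraries only, since the mice behind them are not given. Brain libraries (1 per genotype) were compared by ratios with exact conditional binomial 95% intervals, which cover counting error only, and called at a fold of 2 with 50 UMIs. Tests were tried on simulated data. All genes matching the name patterns were included. In brain ECs every such gene with 50 UMIs was named, in other brain labels pairs with 100 UMIs, a fold of 2 and an interval without 1, and in the retina the 15 genes of highest leading level, with others named by pathway role or for a small p, once values were known. Other settings tried concerned covariates, batch, scaling, filters, depth, libraries left out, pericyte share, cell cycle and weighting of nuclei. The genes and lists were chosen with earlier results of these data known.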

Additional observations from a re-analysis of the deposited data

How the results depend on the processing

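In the retina, pairs called over all genes numbered 4 with kit as the only covariate, 71 in batch 1 alone, 138 with DESeq2 and 784 without a filter on low counts, beside 21 as reported, and from 12 to 73 when each CKO library was left out in turn. Among the semaphorin, plexin, Eph and ephrin genes the count was 5 without the filter and 0 in all other settings. In brain ECs 4 of 28 of these genes were called, and the following percentages are the shares called over all genes. The same 4 were called of 28 with TMM (13%) and of 33 with a minimum of 20 UMIs (17%). They were also called of 28 in nuclei of at least 1000 UMIs (12.6%) and of 26 without cell cycle UMIs (11.2%). With a minimum of 200 UMIs, 2 of 21 were called, *Plxna4* and *Sema3c* (7.71%). With a fold of 1.5, 4 were called higher and 7 lower (2428 and 1058 of 11351 over all genes, 30.7% called, beside 13.4% as reported). With each nucleus weighted equally, 5 were called higher (*Sema6b*, *Efna4*, *Sema3a*, *Plxnb1* and *Efnb1*) and 6 lower (2663 and 605 over all genes, 28.8%). With low pericyte share 4 of 11 genes were called, all lower (420 higher and 280 lower of 2483 over all genes), but they were *Epha4*, *Plxna4*, *Sema3c* and *Sema6d*, and *Epha3* and *Epha7* had too few UMIs. There the called ratio of *Epha3* turned to 1.45 on 6 and 5 UMIs. The cause was not tested. In other brain labels, where 7 pairs were called higher and 16 lower of 293 (1104 and 4586 of 74969 over all genes), a minimum of 20 UMIs gave 40 (12 and 28 of 358, over all genes 4085 and 10188 of 104162), a minimum of 200 gave 3 (0 and 3 of 185, over all genes 73 and 698 of 35221), and a fold of 1.5 gave 69 (37 and 32, over all genes 4918 and 10425), so that the balance turned for these genes. With each nucleus weighted equally, 45 genes in the retina and 49 in the brain had the same leading label, and without CKO 4 and 5, 48 in the retina. No paired analysis was possible because the control group holds 1 library. Depth limits the 23 genes with at most 36 UMIs in ECs, and 1 brain library per genotype gives no replicate error.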
